A study of Glycine soja with 14 samples.

Results

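Among the probe sets that the study's time course test selected in the roots of wild soybean (Glycine soja) under NaHCO3, 95 had the functional category Transporter, and 82 of them are described here. The 82 were reached by leaving out 8 probe sets with a named gene symbol and 5 whose description names nitrate, phosphate, iron, sodium, potassium, cation/H or H+-ATPase. Together they take in pumps, carriers and channels for drugs and metabolites, amino acids, ammonium, metals, sugars, water, lipids and nucleotides, among 61170 probe sets of the array and 1592 of the time course list. The list was selected on the intensities of the same arrays over time, so the time courses of the 82 are given as a description, without p-values. The study's own test statistic was not used here. In a spline fit across all probe sets tested (4 degrees of freedom), the highest adjusted p among the 82 was 0.0713, and the lowest among 65 Transporter probe sets outside the time course list was 0.000105.

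Membrane transporters set what a root takes up, stores in the vacuole, passes to the shoot and releases into the soil. Pumps of the ABC and P-type ATPase families spend ATP directly. Carriers for sugars, amino acids and peptides mostly use the proton gradient that the plasma membrane H+-ATPase builds, a gradient that an alkaline medium works against. Channels such as aquaporins let their substrate pass along its own gradient.

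The plants were line G07256, grown in dilute Hoagland's solution and moved to the same solution with 50 mmol/L NaHCO3 at pH 8.5. The last 3 cm of the root was taken before the move (0 h, the unstressed control), after 0.5, 1 and 3 h, and again after 6, 12 and 24 h. Each of the 14 arrays, 2 per time, held RNA from a pool of 3 plants of the same experiment, so the error given is the spread between these pools. No unstressed roots of later hours are among the samples, and stress, time of day and time since transfer cannot be told apart. The labels give an age of 21 days and 12 h of light a day, while the study's methods give an earlier transfer and another light regime. The array carries probes designed on cultivated soybean (Glycine max), and the intensities, on a linear scale set by the authors' probe model, cannot be compared between probe sets as transcript amounts.

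All 82 probe sets lay above the level of the pathogen probe sets of the array (a mean log2 intensity over 3.91) and were tested among 28567 probe sets with limma. A probe set was called at an unadjusted p under 0.05 and an adjusted p under 0.15. The SE of a change against 0 h was between 0.13 and 0.38 for the 82, with a median of 0.19 on the log2 scale. Median log2 intensity of the tested probe sets was between 6.30 and 6.50 on every array. The spiked hybridization controls were dim on a pair of arrays, with a mean log2 of 9.45 for 0.5 h replicate 1 and 9.29 for 12 h replicate 2, while the other arrays lay between 10.09 and 10.75. Of 11 root symbols listed, 4 were matched, and all 4 probe sets were above background. Of 10 symbols of green tissue, CAB3 and PSAD were matched, and 7 of their 10 probe sets were also above background. The 9 seed probe sets were all below background, and none of 12 nodule symbols was matched. In such tissue samples, fewer cells of a type and less RNA per cell cannot be told apart.

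Most of the 82 stayed near their 0 h level for the first hour, parted in both directions at 3 and 6 h, and were low at 12 and 24 h. After 0.5 h none was higher and 5 were lower than at 0 h, against 2.26% of all probe sets tested called higher and 3.27% called lower. After 1 h none was higher and 1 was lower (background 0.179% and 0.375%). After 3 h 24 were higher and 16 lower (background 5% and 12%), and after 6 h 26 were higher and 27 lower (background 8.67% and 12.1%). After 12 h 7 were higher and 46 lower (background 7.95% and 16.4%), and after 24 h 11 were higher and 46 lower (background 6.07% and 19.6%). Between 6 and 12 h, 11 rose and 49 fell (background 15.3% and 18.6%). The time course test chose on these contrasts, so the excess over the background follows in part from the choice and nothing is read from it.

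**Figure D1:**
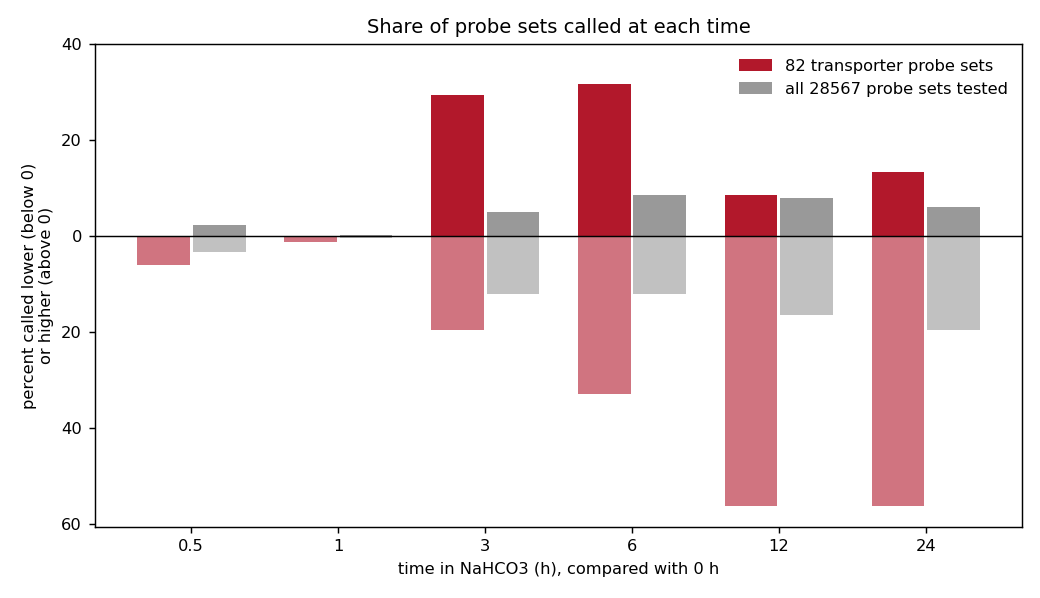
Share of probe sets called higher (bars above 0) or lower (bars below 0) than at 0 h at each time, in percent, for the 82 transporter probe sets in red and all 28567 probe sets tested in grey. The transporters were called in both directions at 3 and 6 h and mainly lower at 12 and 24 h.

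The median log2 change of the 82 was 0.01 after 0.5 h, -0.03 after 1 h, 0.16 after 3 h, 0.17 after 6 h, -0.63 after 12 h and -0.49 after 24 h. Over all probe sets tested the medians were -0.02, -0.01, -0.14, -0.05, -0.04 and -0.13. Centring each array on its median moved the median of all probe sets to 0.03 after 3 h, 0.07 after 12 h and 0.09 after 24 h, and that of the transporters to 0.33, -0.51 and -0.27. With that centring 28 transporters were higher and 8 lower after 3 h, and 16 were higher and 32 lower after 24 h. With quantile normalization 15 were higher and 35 lower after 24 h. Over all probe sets, the balance of calls depended on the scale. The deposited scale gave 1428 higher and 3421 lower after 3 h, 2271 and 4673 after 12 h, and 1733 and 5594 after 24 h. Quantile normalization gave 1618 and 1767, 4383 and 3902, and 3660 and 3800 at the same times, so that after 12 h more probe sets were higher than lower, and between 6 and 12 h 5684 and 4599 in place of 4358 and 5326. Centring gave more higher than lower calls at most times, with 918 and 820 after 0.5 h, 2381 and 1548 after 3 h, 3360 and 2703 after 6 h, 4069 and 3851 after 12 h, and 4584 and 3396 after 24 h. Of the transporters, 8 were higher and 43 lower after 12 h with quantile normalization, and 9 and 43 with centring.

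Leaving out an array of the times compared sets 2 arrays against 1, and the early counts fell with each such array. The share of all probe sets called in these fits is not given here, so nothing particular to the transporters is read from the fall. After 3 h the number called higher was 5 without 3 h replicate 2, 6 without 3 h replicate 1, 8 without 0 h replicate 1 and 6 without 0 h replicate 2. The number called lower after 3 h was 2 without 0 h replicate 1 or 3 h replicate 1, and 5 without 0 h replicate 2 or 3 h replicate 2. After 6 h 12 were called higher without 6 h replicate 2, 14 without 6 h replicate 1, 16 without 0 h replicate 1 and 15 without 0 h replicate 2. The 11 higher after 24 h became 6 when either 0 h array was left out and 7 without 24 h replicate 1. The counts of lower probe sets at 12 and 24 h lay between 38 and 47 and between 31 and 47 over all arrays left out.

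A single time course shape was the most frequent. The highest time mean lay at 3 or 6 h and the lowest at 12 or 24 h in 49 of the 82 (59.8%), against 46.2% of the other 1509 tested probe sets of the time course list and 18.4% of all probe sets tested. A further 16 (19.5%) were highest after 24 h and lowest at 3, 6 or 12 h, against 20.4% and 12.3%. Highest at 0 or 0.5 h were 11 (13.4%), highest after 12 h 6, and none was highest after 1 h. Counted by calls, 24 were higher at 3 or 6 h and lower at 12 or 24 h, and 11 were lower at 3, 6 or 12 h and higher after 24 h. The share of all probe sets with these combined calls was not computed, so nothing is read from the counts. The difference between the highest and the lowest time mean was between 0.53 and 3.72 on the log2 scale, with a median of 1.65, against 0.91 over all probe sets tested. The summed intensity of the 4 root probe sets was also high at 3 and 6 h, as it was after 0.5 h. It was 4995 and 5216 at 0 h, 12378 and 7668 after 0.5 h, and 9687 and 10083 after 3 h. Later it was 13139 and 13343 after 6 h, 5985 and 5551 after 12 h, and 4134 and 6415 after 24 h. The sum was carried mostly by IFS1 and IFS2, isoflavone synthases, and the list was not uniform. All 4 probe sets had both arrays above 0 h after 0.5 h, 2 after 3 h and 3 after 6 h. IFS1 and IFS2 had both above it at 3 and 6 h, and NRT2 after 6 h but not after 3 h. PRP1 had both below 0 h after 6 h. The share of all probe sets with arrays so separated was not computed, so nothing is read from these counts. The part of root tissue in the shape was not tested.

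**Figure D2:**
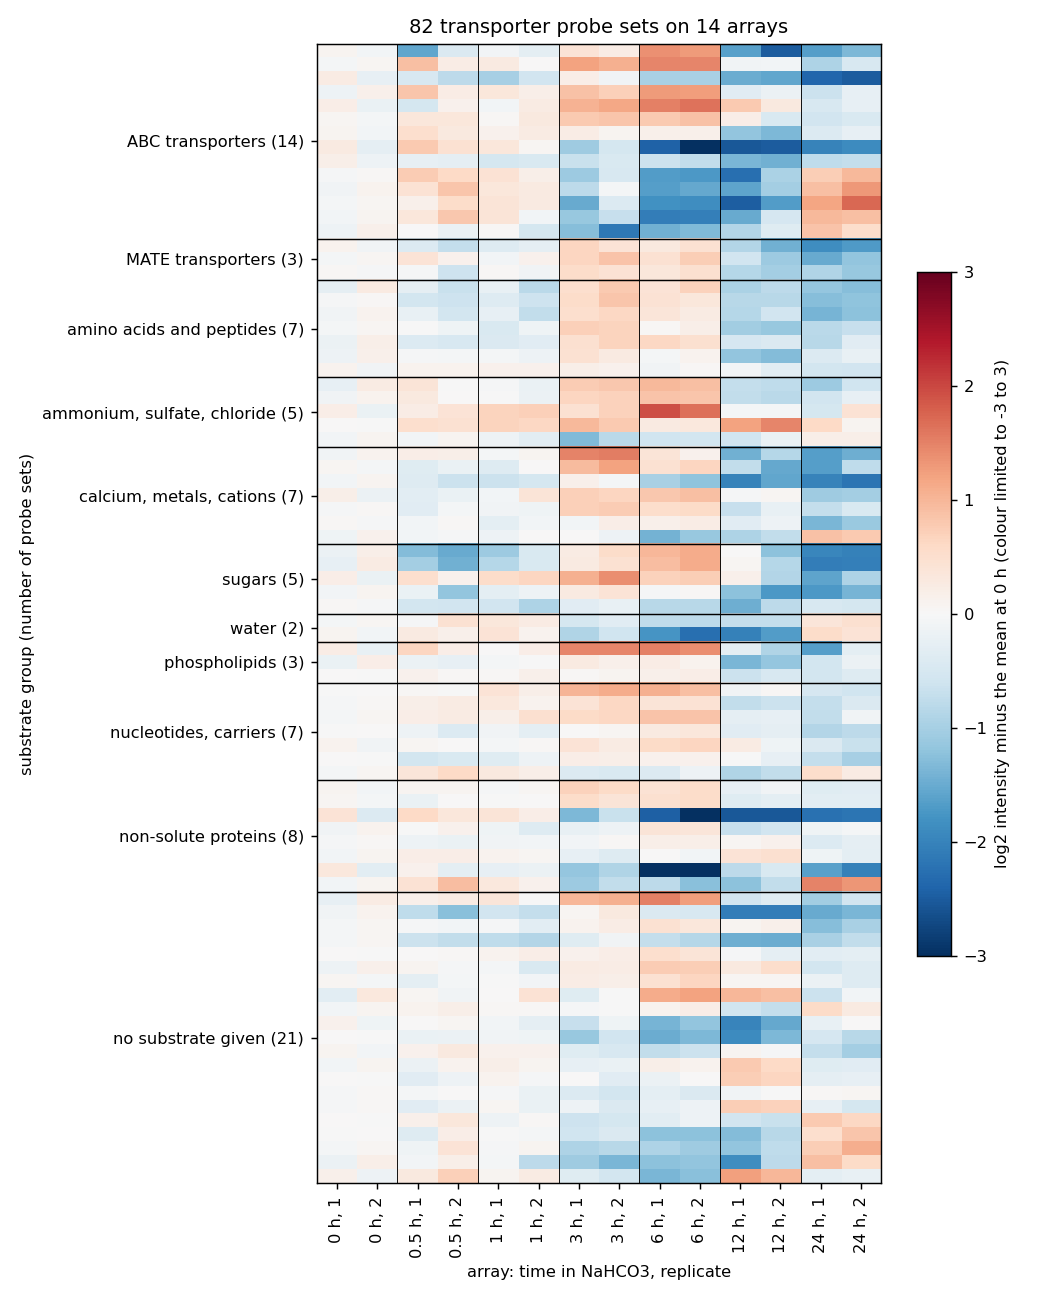
Log2 intensity of the 82 transporter probe sets (rows, by substrate group, number in brackets) on the 14 arrays (columns, by time and replicate), each as the difference from the probe set's mean at 0 h, with the colour limited to -3 to 3. Red at 3 and 6 h followed by blue at 12 and 24 h runs through most groups. The aquaporins, some ABC transporters and some probe sets of other groups are blue at 6 and 12 h and red after 24 h.

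The ABC transporters were the largest group with a named function, with 14 probe sets, and split between both shapes. Many proteins of this class are pumps that move drugs, hormones, waxes and other metabolites across membranes. For 1 of the 14 the Arabidopsis match is GCN1 (general control non-repressible 1), a description that names no transport. After 6 h 5 were higher and 8 lower than at 0 h, after 12 h none was higher and 9 were lower, and after 24 h 4 were higher and 6 lower. The group's median log2 change was -0.83 after 6 h, -1.28 after 12 h and -0.40 after 24 h. Over all probe sets tested, 5% were higher and 12% lower after 3 h, and 8.67% and 12.1% after 6 h. The shares were 7.95% and 16.4% after 12 h, and 6.07% and 19.6% after 24 h. Members were chosen on these contrasts, so the group counts here and below are a description, and no excess is read from them.

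The widest range in the group belonged to an ATP-binding protein of the ABC class (LOC100797121). Its intensity was 129 and 139 at 0 h, 148 and 197 after 0.5 h, 176 and 162 after 1 h, 47.1 and 100.3 after 3 h, 38.1 and 37.0 after 6 h, 24.1 and 42.0 after 12 h, and 306 and 444 after 24 h. All arrays from 3 to 12 h lay below those at 0 h, and both after 24 h lay above every other array. It was lower, with changes of -0.96 after 3 h, -1.83 after 6 h and -2.07 after 12 h on the log2 scale, and rose by 1.46 after 24 h (SE 0.36). A second probe set of the same transcript cluster gave 82.4 and 85.7 at 0 h, 26.2 and 25.4 after 6 h, 17.4 and 43.6 after 12 h, and 141 and 164 after 24 h, so it was likewise low at 6 and 12 h and high after 24 h.

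A pair of probe sets of another ABC cluster had the same course. They fell, with changes of -2.06 and -1.59 after 6 h, and rose by 0.94 and 1.10 after 24 h (SE 0.31 and 0.27). White-brown complex homolog protein 5 is of the ABCG class, some of whose members export lipids of the plant surface. It fell, with changes of -1.71 after 3 h and -1.38 after 6 h, and was at 0.69 after 24 h, where it was not called. The summed intensity of the 10 CAB3 and PSAD probe sets was 7816 and 5782 at 0 h, 2389 and 2041 after 6 h, 1299 and 1788 after 12 h, and 9288 and 10663 after 24 h. The sum was carried by bright CAB3 probe sets, and the list was not uniform. Of the 4 CAB3 probe sets above background, 3 had both arrays below 0 h at 6 and 12 h, and all 4 had both above it after 24 h. The fourth CAB3 probe set had a mean log2 of 6.20 at 0 h, 6.17 after 6 h and 6.02 after 12 h. Of the 3 PSAD probe sets, 2 had both arrays below 0 h after 6 h. After 12 h none had both below it and 2 had both above it. After 24 h 2 had both above it and 1 had both below it. The share of all probe sets with arrays so separated was not computed, so nothing is read from these counts. The part of green tissue in the result was not tested.

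The pleiotropic drug resistance (PDR) transporters, full-size ABCG pumps known in tobacco for exporting antimicrobial compounds, did not move together. Pleiotropic drug resistance protein 1 had an intensity of 158 and 144 at 0 h, 51.2 and 112 after 0.5 h, 143 and 124 after 1 h, 199.6 and 177 after 3 h, 392 and 364 after 6 h, 49.0 and 26.7 after 12 h, and 47.7 and 58.9 after 24 h. Both 6 h arrays stood above all others, and all 4 arrays at 12 and 24 h lay below both at 0 h. It rose by 1.33 after 6 h and fell, with changes of -2.06 after 12 h and -1.51 after 24 h (SE 0.35), and between 6 and 12 h it fell by 3.38 on the log2 scale.

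PDR-type ABC transporter 2 ran the other way up to 6 h. Its intensity was 360.4 and 245 at 0 h, 509.6 and 409 after 0.5 h, 378 and 308 after 1 h, 141 and 205 after 3 h, 55.5 and 37.8 after 6 h, 51.0 and 52.3 after 12 h, and 73.8 and 80.5 after 24 h. The 8 arrays from 3 h on lay below both at 0 h. The log2 changes were -0.80 after 3 h, -2.70 after 6 h, -2.52 after 12 h and -1.95 after 24 h (SE 0.26).

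Both probe sets described as pleiotropic drug resistance protein 3 rose at 3 and 6 h, by 1.13 and 1.46 for one and by 0.80 and 1.27 for the other. The P-glycoprotein 1 homolog, in Arabidopsis an auxin exporter, rose by 1.10 after 3 h and by 1.58 after 6 h. Multidrug resistance protein 17 fell at 3, 6, 12 and 24 h, with changes of -0.55, -0.69, -1.41 and -0.74. Largest after 24 h was the fall of a putative ABC transporter, by 2.44.

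MATE proteins (multi antimicrobial extrusion) exchange organic compounds, among them citrate and flavonoids, for protons or sodium. All 3 fell at 12 and 24 h, and 1 was called higher at 3 and 6 h. The first had an intensity of 281 and 246 at 0 h, 197 and 159 after 0.5 h, 201 and 219.5 after 1 h, 410.0 and 349 after 3 h, 322 and 359 after 6 h, 144 and 96.6 after 12 h, and 72.1 and 81.1 after 24 h. Its arrays at 3 and 6 h were the highest and those at 12 and 24 h the lowest, with no overlap with 0 h. Called changes were -1.16 after 12 h and -1.78 after 24 h (SE 0.21). The second rose by 0.74 after 3 h and by 0.60 after 6 h and fell, with changes of -0.84 and -1.35 at 12 and 24 h. The third fell, with changes of -0.94 and -1.02.

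All 7 amino acid and peptide carriers had their highest time mean at 3 or 6 h and their lowest at 12 or 24 h. So had 6 in each of the other groups of 7, and 46.2% of the other tested probe sets of the time course list. Of the amino acid and peptide carriers, 4 rose after 3 h and 1 after 6 h, and 6 fell after 12 h and 6 after 24 h. The medians were 0.58, 0.31, -0.84 and -0.75. A putative histidine amino acid transporter had an intensity of 901 and 956 at 0 h, 636 and 601 after 0.5 h, 716 and 602 after 1 h, 1351 and 1652 after 3 h, 1248 and 1167 after 6 h, 518 and 521 after 12 h, and 380.1 and 405 after 24 h. The 3 and 6 h arrays all stood above 0 h, and those of every other time below it. It fell by 0.59 after 0.5 h, rose by 0.69 after 3 h and fell, with changes of -0.84 after 12 h and -1.24 after 24 h (SE 0.16).

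A second probe set with that description rose by 0.56 after 3 h and fell, with changes of -0.71 and -1.32 at 12 and 24 h. An amino acid/polyamine transporter had the course closest to the first histidine transporter among the 82. The root mean square difference between their log2 changes against 0 h was 0.09 over the stress times. Its intensity was 42.5 and 61.4 at 0 h, 73.0 and 87.6 after 3 h, 26.7 and 29.7 after 12 h, and 23.1 and 21.0 after 24 h. It fell, with changes of -0.86 after 12 h and -1.22 after 24 h (SE 0.25).

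The broad-range amino acid permease AAP1 rose by 0.69 after 3 h, and fell, with changes of -1.09 after 12 h and -0.75 after 24 h. An oligopeptide transporter, of a class that carries short peptides with protons, rose by 0.58 and 0.55 at 3 and 6 h and fell, with changes of -0.47 and -0.59 at 12 and 24 h. A second probe set described with an oligopeptide transporter domain was called after 24 h alone, where it fell by 0.57.

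The 3 ammonium transporters all rose after 6 h. AMT proteins carry ammonium into root cells, and the AMT1 class is the high-affinity uptake system of plants. Putative AMT1;1 had an intensity of 507 and 383 at 0 h, 514 and 589.6 after 0.5 h, 697 and 723 after 1 h, 601 and 713 after 3 h, 1673 and 1392 after 6 h, 420.0 and 424 after 12 h, and 307 and 594 after 24 h. The 6 h arrays stood far above all others, and those of 12 and 24 h overlapped with 0 h. It rose by 1.79 after 6 h (SE 0.28) and was at -0.06 after 12 h and -0.05 after 24 h.

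Both other ammonium transporters also rose after 3 h and fell later. The AMT2-like probe set had an intensity of 396 and 458 at 0 h, 668 and 686 after 3 h, 771 and 760.5 after 6 h, 253 and 241 after 12 h, and 288 and 357 after 24 h. It rose by 0.67 and 0.85 at 3 and 6 h and fell, with changes of -0.78 and -0.41 at 12 and 24 h (SE 0.17). The third rose by 0.79 and 0.93 and fell, with changes of -0.74 and -0.85 (SE 0.22), and its 6 h call was lost without 0 h replicate 1, where the change was 0.69.

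A low affinity sulfate transporter stood apart from these. Its intensity was low, 12.2 and 12.0 at 0 h, 23.8 and 21.1 after 3 h, 14.6 and 15.1 after 6 h, and 28.0 and 33.7 after 12 h, with the highest arrays at 3 and 12 h. Its 0 h and 6 h means lay below the level of the pathogen probe sets, so the changes have only a lower bound. Measured from that level it was at least 1.49-fold higher after 3 h and at least 2.04-fold higher after 12 h than at 0 h. Chloride channel protein CLC-e, in Arabidopsis a protein of the chloroplast, fell, with changes of -1.06 after 3 h and -0.58 after 6 h, and was at 0.18 after 24 h.

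Among 7 probe sets for calcium, metals and other cations, 4 rose after 3 h, 5 fell after 12 h and 6 fell after 24 h. Proteins with a heavy metal transport/detoxification domain bind metal ions and deliver them within the cell. One of them had an intensity of 309 and 354 at 0 h, 379 and 375 after 0.5 h, 319 and 349.5 after 1 h, 926 and 966 after 3 h, 434 and 361 after 6 h, 122 and 183 after 12 h, and 105 and 120.2 after 24 h. It peaked after 3 h, well above any other array, and all arrays at 12 and 24 h lay below the rest. It rose by 1.52 after 3 h and fell, with changes of -1.14 after 12 h and -1.56 after 24 h (SE 0.20).

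The other had no such peak, with 747 and 829 at 0 h, 600.0 and 506 after 0.5 h, 501 and 545 after 1 h, 874 and 758 after 3 h, 398 and 340.5 after 6 h, 196 and 266 after 12 h, and 196 and 173 after 24 h. Its 3 h arrays overlapped with 0 h, and every array from 6 h on was lower. It was lower, with changes of -1.10, -1.79 and -2.10 at 6, 12 and 24 h (SE 0.19). Thus both metal-binding probe sets were lowest after 24 h, and 1 of them rose on the way.

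A probe set matched to CNBT1, a cyclic nucleotide-gated channel of Arabidopsis, rose by 1.07 after 3 h and fell, with changes of -1.14 and -1.21 at 12 and 24 h (SE 0.32). Its 24 h call was lost without 24 h replicate 1, where the change was -0.75 (intensities 17.1 and 32.0 after 24 h against 56.0 and 51.9 at 0 h). A second probe set with the CNBT1 match rose by 0.74 and 0.55 at 3 and 6 h and fell, with changes of -0.46 and -0.58 at 12 and 24 h. A cation efflux permease rose by 0.68 after 3 h and by 0.86 after 6 h and fell by 1.05 after 24 h, and a metal-transporting P-type ATPase fell by 1.23 after 24 h alone. The TrkA-N probe set (LOC100806734) is named for a nucleotide-binding domain of bacterial potassium uptake systems. It fell, with changes of -1.29 after 6 h and -0.83 after 12 h, and rose by 0.83 after 24 h. The course of 3 of the 4 CAB3 probe sets given above was also low and then high. After 12 h 2 of the 3 PSAD probe sets had both arrays above 0 h, and the part of green tissue was not tested.

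**Figure D3:**
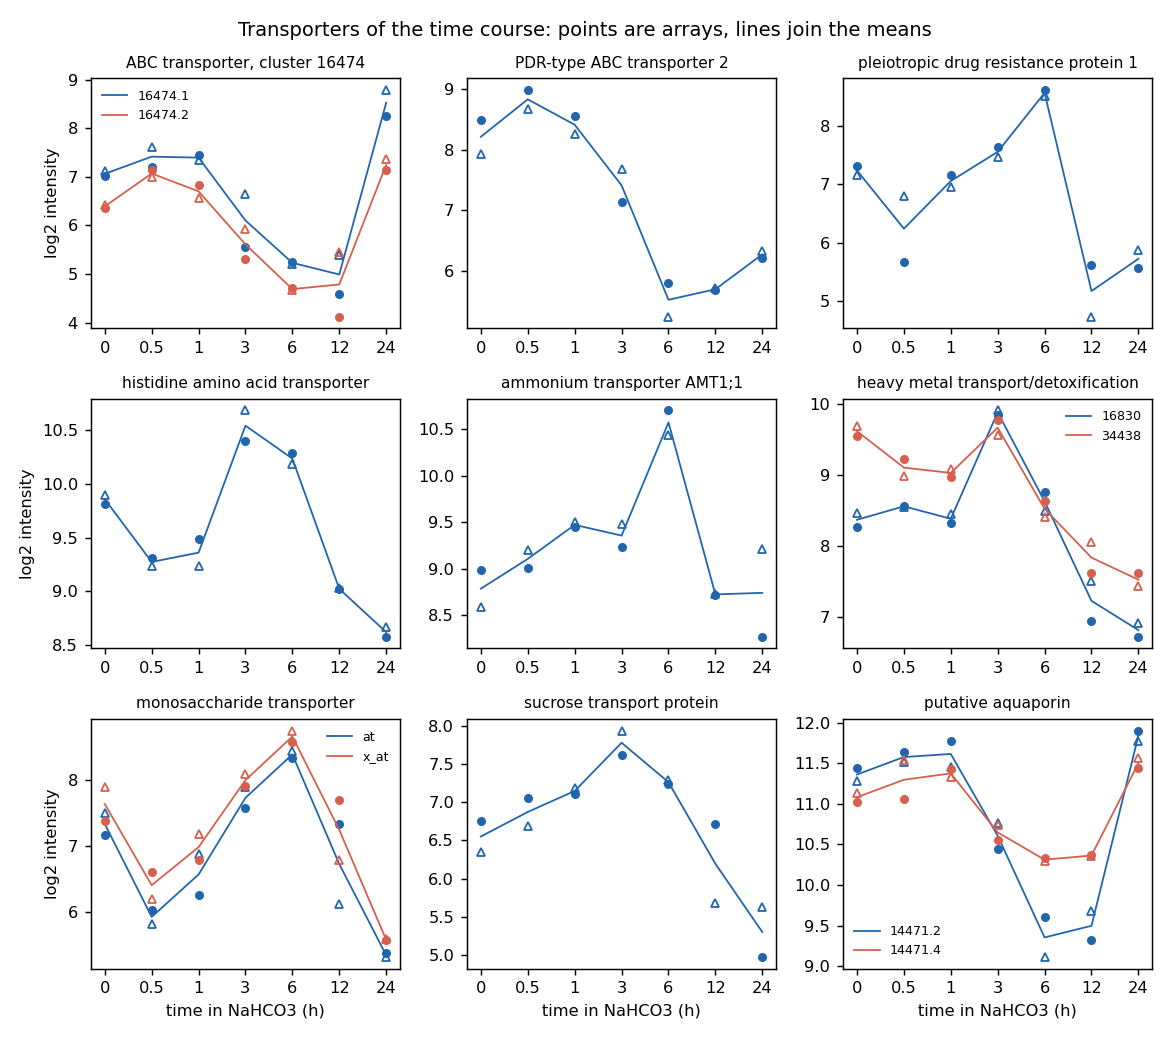
Log2 intensity by time in NaHCO3 for probe sets of 9 transporter types, with replicate 1 as filled circles, replicate 2 as open triangles and lines through the time means; time is drawn in equal steps. The amino acid, ammonium, monosaccharide and sucrose carriers are highest at 3 or 6 h, and the aquaporin and the first ABC transporter are lowest at 6 or 12 h and highest after 24 h.

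All 5 sugar carriers ended lower than they began: each fell after 24 h, with a median of -1.56. Plant monosaccharide and sucrose carriers import their sugar with protons. The monosaccharide transporter, a soybean sequence with a pair of probe sets that differed by at most 0.22 in log2 change, was called at 3 times. On its x_at probe set the intensity was 167 and 237 at 0 h, 97.5 and 73.7 after 0.5 h, 110.3 and 145 after 1 h, 239.7 and 272 after 3 h, 379.9 and 429.6 after 6 h, 207 and 111 after 12 h, and 47.5 and 48.1 after 24 h. The arrays at 0.5, 1 and 24 h lay below both at 0 h, those at 3 and 6 h above, and those after 12 h overlapped with 0 h. It fell by 1.23 after 0.5 h, rose by 1.02 after 6 h and fell by 2.06 after 24 h (SE 0.29).

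The companion probe set, with an intensity of 144 and 181 at 0 h, fell by 1.41 after 0.5 h, rose by 1.05 after 6 h and fell by 1.99 after 24 h (SE 0.35). These are 2 of the 5 probe sets called after 0.5 h, where no transporter was called higher. Without 0.5 h replicate 1, on which the spiked controls were low, 2 of the 82 were called lower at that time, and without 0 h replicate 2 none was. Without 0 h replicate 1 the count was 2, without 0.5 h replicate 2 it was 3, and with either 12 h array left out it was 10.

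A sucrose transport protein had an intensity of 108 and 81.6 at 0 h, 133 and 103 after 0.5 h, 138 and 146 after 1 h, 197 and 245 after 3 h, 150.4 and 157 after 6 h, 105 and 51.3 after 12 h, and 31.3 and 49.7 after 24 h. Its 3 h arrays were the highest and its 24 h arrays the lowest. It rose by 1.23 after 3 h and fell by 1.25 after 24 h (SE 0.33). The 24 h call was lost without 0 h replicate 1 (change -1.05) and without 24 h replicate 1 (-0.92). The members of the sugar transporter superfamily fell, with changes of -1.48 and -1.56 at 12 and 24 h, and -0.83, -1.13 and -0.51 at 6, 12 and 24 h.

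The 2 water channel probe sets, both of 1 transcript cluster, had a different course from most of the carriers. They were among the 16 of the 82 that were highest after 24 h and lowest at 3, 6 or 12 h. Those 16 also held 5 ABC transporters and 6 probe sets with no substrate in the description. Both probe sets of a putative aquaporin were among the brightest tested, at percentiles 98.7 and 98.9 of the mean level. On the first, the intensity was 2788 and 2477 at 0 h, 3186 and 2921 after 0.5 h, 3487 and 2813 after 1 h, 1396 and 1739 after 3 h, 776 and 552 after 6 h, 639.7 and 816 after 12 h, and 3822 and 3502 after 24 h. All arrays from 3 to 12 h lay below those at 0 h, and both after 24 h were the highest of the series. It fell at 3, 6 and 12 h (-0.75, -2.01 and -1.86) and was at 0.48 after 24 h (SE 0.21), where it was not called.

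The second probe set gave 2079.7 and 2253 at 0 h, 1285 and 1255 after 6 h, 1319.5 and 1314 after 12 h, and 2775 and 3019 after 24 h. It fell at 6 and 12 h (-0.77 and -0.72) and rose by 0.42 after 24 h (SE 0.17). The 2 changes after 6 h differed by 1.24 on the log2 scale, the widest gap within a transcript cluster among the 82. Of the 4 CAB3 probe sets, 3 were low at 6 and 12 h and high after 24 h as well. After 12 h 2 of the 3 PSAD probe sets had both arrays above 0 h. The part of green tissue in the aquaporin's course was not tested.

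Phospholipid-transporting ATPases are flippases that move lipids from one leaflet of a membrane to the other. One ATPase 1 probe set had an intensity of 52.3 and 38.6 at 0 h, 69.99 and 51.8 after 0.5 h, 45.0 and 51.2 after 1 h, 125 and 124 after 3 h, 128 and 117 after 6 h, 36.5 and 23.9 after 12 h, and 14.4 and 36.7 after 24 h. The 4 arrays at 3 and 6 h stood apart above all others. It rose by 1.47 after 3 h and by 1.45 after 6 h and fell by 0.97 after 24 h (SE 0.38). The 3 h call was lost without 0 h replicate 2 (change 1.25), 3 h replicate 1 (1.47) or 3 h replicate 2 (1.48). A second ATPase 1 probe set fell by 1.27 after 12 h, and ATPase 3 fell, with changes of -0.56 and -0.46 at 12 and 24 h.

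Of 7 carriers for nucleotides, nucleosides and organelle metabolites, 4 rose after 6 h and none fell before 12 h. BT1, described as a biopterin transport-related protein, had an intensity of 166 and 170.1 at 0 h, 339.6 and 364 after 3 h, 350.0 and 315 after 6 h, 157 and 172 after 12 h, and 119 and 111 after 24 h. Its 3 and 6 h arrays were all about 2 times those at 0 h. It rose by 1.06 and 0.98 at 3 and 6 h and fell by 0.55 after 24 h (SE 0.15). A probe set matched to ENT1, the equilibrative nucleoside transporter, rose by 0.60 and 0.85 at 3 and 6 h (SE 0.20).

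The plastidic ATP/ADP transporter, which exchanges adenylates across the plastid envelope, rose by 0.60 after 6 h and fell by 0.55 after 24 h. Of the mitochondrial carriers, 1 rose by 0.51 and 0.41 at 3 and 6 h and fell, with changes of -0.69 and -0.57 at 12 and 24 h. The other fell by 0.82 after 12 h (SE 0.17), with 39.8 and 44.5 against 71.2 and 77.7 at 0 h. A pair of probe sets whose Arabidopsis match is a phosphate translocator-related protein fell, with changes of -0.83 and -0.86 after 24 h.

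The category also held 8 probe sets grouped here, from their descriptions, as proteins that do not carry small solutes. The widest range of all 82 was among them. Nonsymbiotic hemoglobin, a heme protein that binds oxygen and takes part in nitric oxide turnover, had an intensity of 4254 and 2788 at 0 h, 3783 and 2798 after 0.5 h, 2922 and 3045 after 1 h, 1549 and 1851 after 3 h, 245 and 277 after 6 h, 1985 and 2522 after 12 h, and 1111 and 844 after 24 h. Both 6 h arrays lay below all others by a wide margin, and 12 h stood between 0 h and 24 h. It fell, with changes of -1.02 after 3 h, -3.72 after 6 h, -0.62 after 12 h and -1.83 after 24 h (SE 0.25).

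A probe set described only as AAA ATPase fell, with changes of -1.01, -2.76, -2.54 and -2.21 at 3, 6, 12 and 24 h (SE 0.31). Its intensity went from 374 and 214 at 0 h to 52.1 and 33.6 after 6 h. The description does not say whether this protein carries a solute. The ABC1 family probe set, whose kinase-like proteins of mitochondria and plastids are no ABC transporters despite the name, had 122 and 138 at 0 h, 61.5 and 77.9 after 3 h, 55.3 and 78.5 after 12 h, and 363 and 323 after 24 h. It was lower, with changes of -0.91, -1.02 and -0.98 at 3, 6 and 12 h, and rose by 1.397 after 24 h (SE 0.25). The course of 3 of the 4 CAB3 probe sets given above was also low and then high. After 12 h 2 of the 3 PSAD probe sets had both arrays above 0 h, and the part of green tissue was not tested. Both probe sets of a TIM17/TIM22/TIM23 protein, a subunit of the mitochondrial import channel, rose after 3 h (0.46 and 0.63) and after 6 h (0.52 and 0.50).

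The remaining 21 probe sets had no substrate in their description, and for 7 of the 82 the study's list gave NA as the main description. In this group 5 rose and 10 fell after 6 h, and 5 rose and 9 fell after 12 h, so that it held 5 of the 7 transporters higher after 12 h. An undescribed probe set had an intensity of 227 and 182 at 0 h, 249.9 and 336 after 0.5 h, 214 and 241 after 1 h, 158 and 138 after 3 h, 78.2 and 85.4 after 6 h, 478 and 407 after 12 h, and 166 and 175 after 24 h. The lowest arrays were those after 6 h and the highest those after 12 h. It fell by 1.31 after 6 h and rose by 1.12 after 12 h (SE 0.19), a rise of 2.43 between these times.

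A major facilitator superfamily probe set, of the class of single-protein carriers driven by ion gradients, gave 331 and 388 at 0 h, 213 and 151 after 0.5 h, 375 and 439 after 3 h, 84.8 and 84.5 after 12 h, and 126 and 138 after 24 h. The log2 changes were -0.998 after 0.5 h, -0.47 after 6 h, -2.08 after 12 h and -1.44 after 24 h (SE 0.18). A probe set described by its Arabidopsis match T23G18.9 rose by 1.03 and 1.38 at 3 and 6 h and fell by 0.82 after 24 h (SE 0.23). The only call after 1 h was the fall by 0.82 of a probe set with the Arabidopsis match AT3g60070, which also fell at 0.5, 6, 12 and 24 h.

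Probe sets of the same families that the time course list did not hold were tested separately. Their absence from the list is itself an outcome of the time course test on these arrays, so they are no random sample of the families. By gene symbol 55 were found and 42 tested: 20 for aquaporins, 10 for sugar transporters, 3 each for ABC transporters, calcium pumps and chloride channels, 2 for metal transporters and 1 for an ammonium transporter. Of the 42, 1 was higher (2.38%) and 5 were lower (11.9%) after 0.5 h, against 2.26% and 3.27% of all probe sets tested. None was called after 1 h (0.179% and 0.375% of all). After 3 h 1 was higher (2.38%) and 2 were lower (4.76%), against 5% and 12%. After 6 h 3 were higher (7.14%) and 8 lower (19%), against 8.67% and 12.1%. After 12 h 4 were higher (9.52%, against 7.95%) and 13 lower, and after 24 h 2 (4.76%, against 6.07%) and 6. The median log2 change was -0.33 after 12 h and 0.02 after 24 h. Called lower were thus 31% of the 42 after 12 h and 14.3% after 24 h, against 16.4% and 19.6% of all probe sets tested. The 13 lower after 12 h belonged to 6 of 25 genes, with 5 probe sets of PIP2-6 and 3 of PDR12 among them, so they are not independent. These counts changed when single arrays were left out, which at a time compared leaves 1 array. The share of all probe sets called in these fits is not given here, so nothing particular to the families is read from the changes. Those higher after 12 h were 1 without 0 h replicate 2 and 2 without 12 h replicate 2, and those lower after 6 h were 3 with any 1 of the 4 arrays at 0 and 6 h left out. Those lower after 24 h were 3 without 0 h replicate 1, and those lower after 0.5 h were 0 without 0.5 h replicate 1 or 0 h replicate 2, 1 without 0 h replicate 1 and 3 when either of the 6 h arrays was left out.

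The 3 probe sets of PDR12, an ABC transporter of the PDR class, were each lower at 12 and 24 h. On the first of them the log2 intensity was 6.88 and 6.51 at 0 h, 6.82 and 7.09 after 6 h, 3.16 and 3.24 after 12 h, and 5.19 and 4.13 after 24 h. The 12 h arrays were the lowest, below the level of the pathogen probe sets. Measured down to that level, it was at least 6.87-fold lower after 12 h (adjusted p = 0.000407, limma), and the log2 change after 24 h was -2.03 (SE 0.37, adjusted p = 0.00658).

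AMT1.3 did not follow the ammonium transporters of the time course list. Its log2 intensity was 8.0001 and 7.41 at 0 h, 6.51 and 6.79 after 3 h, 7.42 and 7.63 after 6 h, 8.74 and 9.30 after 12 h, and 8.83 and 9.02 after 24 h. It was lower after 3 h (-1.06, SE 0.32, adjusted p = 0.0853) and higher after 12 h (1.32, adjusted p = 0.0225) and 24 h (1.22, adjusted p = 0.0301). The 3 h call was lost with any 1 of the 4 arrays at 0 and 3 h left out, with changes from -1.35 to -0.76. Those at 12 and 24 h were lost without 0 h replicate 2, at 1.02 and 0.92. The difference from the other ammonium transporters was not tested.

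Among the aquaporins outside the list, 7 of 20 probe sets were lower and 2 higher after 6 h (over all probe sets tested 12.1% and 8.67%), 8 were lower and 1 higher after 12 h (16.4% and 7.95%), and none was lower and 1 higher after 24 h (19.6% and 6.07%). All 5 probe sets of PIP2-6 were lower after 12 h, by unlike amounts. The 2 brightest changed by 0.08 and -0.06 after 0.5 h and by -0.87 and -0.76 after 12 h. A further 2 changed by -1.99 and -2.11 after 0.5 h and by -1.765 and -2.23 after 12 h. The probe set with the largest change had log2 intensities of 8.18 and 7.70 at 0 h, 4.18 and 5.89 after 0.5 h, 6.26 and 4.07 after 12 h, and 7.82 and 8.44 after 24 h. It changed by -2.90 after 0.5 h (SE 0.72, adjusted p = 0.0862) and by -2.78 after 12 h (adjusted p = 0.0315). The 0.5 h call did not hold when 0.5 h replicate 1 (-2.04) or an array of 0 h (-2.66 and -3.14) was left out, and the 12 h call without 12 h replicate 2 (-1.68). The lowest value at each of these times was that of the array on which the spiked controls were low.

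PIP2-10, named after its values were seen, had log2 intensities of 8.26 and 8.09 at 0 h, 8.44 and 8.33 after 3 h, 5.90 and 6.11 after 6 h, 5.52 and 6.48 after 12 h, and 8.97 and 8.26 after 24 h. The 6 and 12 h arrays lay below all others, while those at 3 h were above 0 h and those after 24 h overlapped with it. It changed by -2.17 at both 6 h (SE 0.31, adjusted p = 0.00332) and 12 h (adjusted p = 0.0018). Of the 4 CAB3 probe sets, 3 were low at the same times. After 12 h 2 of the 3 PSAD probe sets had both arrays above 0 h, and the part of green tissue was not tested.

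Of the sugar transporters outside the list, SWEET34, of a family that lets sugars leave cells, was lower after 6 h (-1.76, SE 0.27, adjusted p = 0.0046) and after 12 h (-1.30, adjusted p = 0.0123). Its log2 intensity was 7.57 and 7.62 at 0 h, 5.64 and 6.03 after 6 h, 6.19 and 6.40 after 12 h, and 7.25 and 7.87 after 24 h, so that 24 h overlapped with 0 h. A probe set of STP1, a monosaccharide carrier, was lower after 24 h (-1.34, SE 0.24, adjusted p = 0.00589), with 9.38 and 9.88 at 0 h and 8.08 and 8.50 after 24 h. Another probe set of STP1 is in the time course list. The smaller changes of STP1 were -0.96 after 0.5 h (adjusted p = 0.0882) and 0.62 after 6 h (adjusted p = 0.135), and both calls were lost under several settings and arrays left out.

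**Figure D4:**
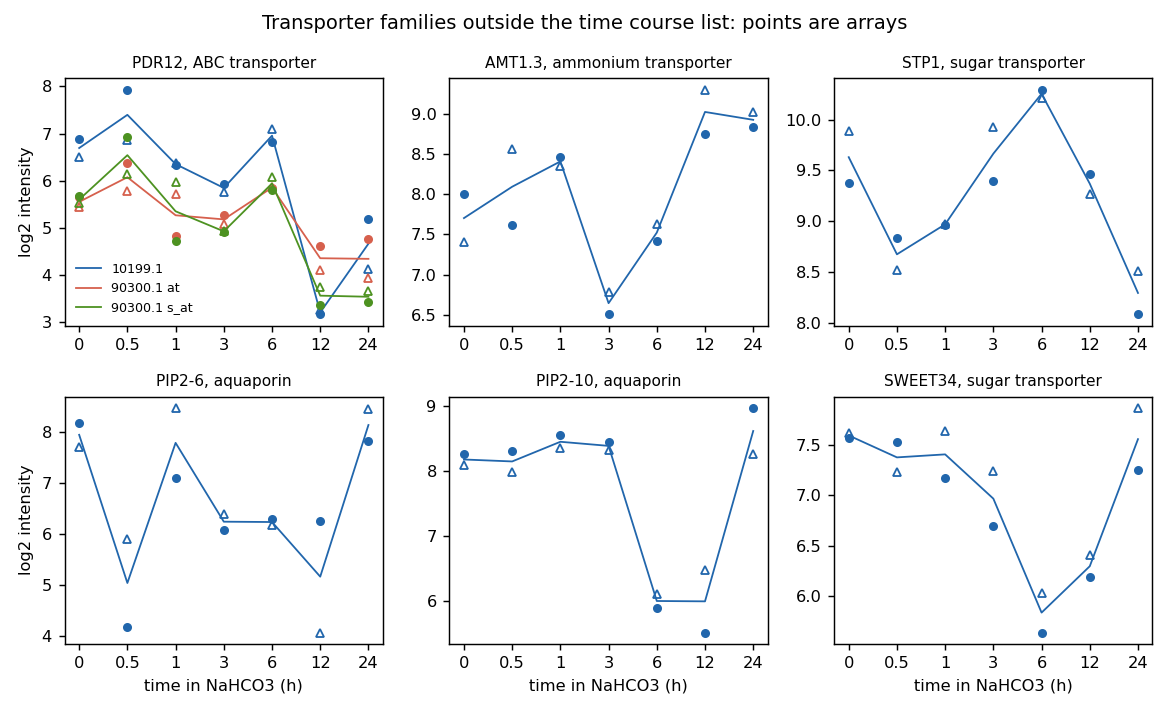
Log2 intensity by time in NaHCO3 for 6 transporter genes outside the time course list, with replicate 1 as filled circles, replicate 2 as open triangles and lines through the time means; time is drawn in equal steps. PDR12 is lowest after 12 h on its first probe set, PIP2-10 and SWEET34 are low at 6 and 12 h and back near 0 h after 24 h, and AMT1.3 is lowest after 3 h and highest at 12 and 24 h.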

How the data were processed

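Root RNA was hybridized to the Affymetrix Soybean Genome Array. The deposited values are linear intensities that the authors computed in dChip with a model on perfect match probes alone, after scaling 1 array of each time to the median of all 14 and fitting the other to it by an invariant set. This fit removes differences between the 2 arrays of a time but not between times, so the errors may be too small. Here log2 was taken with a floor of 1. Soybean probe sets were kept with a mean above the 95th percentile of the 23350 pathogen probe sets (28727 of 37594) and a median SD/mean above 0 and under 0.5, which removed 160. limma 3.58.1 in R 4.3.3 was fitted to 7 time groups with 7 residual degrees of freedom, and its p-values were adjusted by Benjamini-Hochberg over all 28567 probe sets tested. The fit was tested on simulated data. Figures were drawn with matplotlib 3.10.9.

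Members and lists were chosen with earlier results of these data known. Substrate groups, and the names given to probe sets, come from the study's descriptions. The rule named, per substrate group, the 3 probe sets with the widest range of time means and their cluster mates, and per family outside the list the probe set with the largest change among those called at 2 or more stress times. Other probe sets, PIP2-10 and STP1 among them, were named after their values were seen. Families were found by symbol, and 7 of 14 family patterns were matched. A gene ID was found for 16 of the 82, of which 3 had 2 IDs. Probe sets ending in s_at or x_at may bind related transcripts. Alternatives were quantile normalization, median centring, no filter, a floor of 8, limma on the 4 arrays compared, the methods' t-test, a replicate block, each array left out, the second description also read and 1 probe set per gene.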

Additional observations from a re-analysis of the deposited data

How the results depend on the processing

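Under these alternatives 47 changes of named probe sets were followed, and none of them turned its sign. For members named by the rule and their cluster mates, this was the largest change against 0 h. For 1 probe set of each gene named outside the list, it was every called change. Other changes given in the text, such as those near 0, were not followed. The fit on 4 arrays, the t-test, the replicate block and no filter leave a difference of time means as it is. Under these the sign could not turn, so it says nothing of how firm a change is. With the methods' t-test 44 of the 47 lost their call and 3 kept it. Over all probe sets, the balance of higher and lower calls turned with quantile normalization after 12 h and between 6 and 12 h. It also turned with centring at 0.5, 3, 6, 12 and 24 h. For the 82 transporters, with quantile normalization 1 was called higher after 0.5 h, and after centring every array 1 was higher after 0.5 h and 8 were lower after 3 h. With limma on the 4 arrays compared 1 was lower after 0.5 h and 0 after 1 h, and with no filter 0 were lower after 1 h. The methods' t-test, adjusted by Benjamini-Hochberg and on 2 residual degrees of freedom, called 0 higher at 3, 12 and 24 h, 0 lower at 0.5, 1, 3, 12 and 24 h, 5 higher and 6 lower after 6 h, and 3 higher and 14 lower between 6 and 12 h. Unadjusted, its p was under 0.05 for 11, 5, 30, 53, 39 and 46 of the 82 at the 6 stress times.

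Replicate numbers did not pair the arrays: over 21 pairs of times the correlation of replicate differences was between -0.349 and 0.295, and over 0.1 in 6. With the replicate number as a block, 0 of the 82 were lower after 1 h in place of 1, and no other count of the 82 moved by over 1.5 times.

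Leaving out 1 array at a time, the transporters called higher were 0 to 2 after 0.5 h, 0 after 1 h, 5 to 26 after 3 h, 12 to 27 after 6 h, 5 to 8 after 12 h, 6 to 13 after 24 h and 8 to 12 between 6 and 12 h. Those called lower were 0 to 10, 0 to 2, 2 to 20, 21 to 27, 38 to 47, 31 to 47 and 42 to 50. Outside the list the ranges were 0 to 2, 0, 0 to 2, 0 to 4, 1 to 5 and 1 to 3 higher, and 0 to 6, 0, 0 to 3, 3 to 10, 9 to 15 and 3 to 6 lower at the 6 stress times.

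For the families outside the list, centring gave 3 higher after 3 h, 5 after 6 h, 7 after 12 h and 6 after 24 h, and 1 lower after 3 h and 5 after 6 h. Quantile normalization gave 8 higher after 12 h and 5 after 24 h. The fit on 4 arrays gave 0 higher after 0.5 h, 2 after 3 h and 6 after 6 h, and 0 lower after 0.5 h, 8 after 3 h and 13 after 6 h. No filter gave 0 higher after 0.5 h and 1 after 6 h, and 3 lower after 0.5 h and 1 after 3 h. The replicate block gave 2 higher after 6 h. The t-test called 2 lower after 6 h and 0 at every other time, in either direction. The causes were not tested.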
